A study of Mus musculus with 6 samples.

Results

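Histone genes were followed in mouse 2-cell embryos that had developed from control or delipidated zygotes. The set held the genes whose symbol begins with Hist1h, Hist2h, Hist3h or Hist4h, together with the variants H2afz, H2afx, H2afy, H3f3a, H3f3b, H1foo and H1f0. It came to 77 genes, of 48967 genes that the exonic parts of the series could be summed to, and comprised 67 replication-dependent genes, 7 variants and 3 annotated pseudogenes. All embryos were wild type and came from F1 (C57Bl/10 × CBA/H) females mated with F1 males. The embryos were grown in KSOM without fatty acids from 0.5 to 2.0 dpc, and the labels give day 2 as the time of the samples. The delipidated group had been treated as zygotes with cytochalasin B and centrifuged until the lipid droplets lay in the perivitelline space, and the droplets were then drawn out through a laser opening in the zona pellucida. The control zygotes were cultured in vitro, and the labels give no mock centrifugation or zona opening for them. Removal of lipid and handling of the zygote therefore cannot be told apart.

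Each group had 3 libraries, and each library was a pool of 3 embryos. Both groups were drawn at random from a common mixture of embryos, which several females had supplied after hormone treatment. The p-values therefore measure only the spread between pools drawn from the same mixed embryos. Total RNA was sequenced after depletion of ribosomal RNA, without prior extraction or poly(A) selection. Summed gene counts were 12164963, 16165958 and 12980787 in control 1, 2 and 3, and 20059460, 16332103 and 14683741 in delipidated 1, 2 and 3. Values for libraries are given below in that order. Levels are CPM, counts scaled to a common library size with TMM, and differences are log2 fold changes, delipidated minus control, with a standard error (SE). The SE was worked back from the quasi-likelihood test of edgeR, as the absolute log2 fold change over the square root of its F.

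Replication-dependent histone genes encode the bulk of the core histones and most linker histones of the nucleosome and are transcribed mainly in S phase, when new DNA has to be packaged. Nearly all lack introns and lie in clusters, and their transcripts end in a conserved stem-loop in place of a poly(A) tail. The stem-loop is bound by SLBP and cleaved with the help of the U7 small nuclear ribonucleoprotein. Replacement variants are made outside S phase as well, usually from polyadenylated, spliced transcripts, and several of them are stored in the oocyte for the remodelling of parental chromatin after fertilisation.

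No histone gene passed the test between delipidated and control embryos. Of the 77 genes, 73 had a count, 59 passed the filter on low counts and were tested, and 0 were called higher or lower by edgeR, beside 0.0% of the 16020 genes tested called higher and 0.0% called lower. At an unadjusted p under 0.05, edgeR counted 0 histone genes, against 184 genes higher (1.15%) and 279 lower (1.74%) among all genes tested (2.89% in either direction). That count of 463 for all genes was 713 without delipidated 1 and 993 without delipidated 3. DESeq2, run without a filter, also called 0 histone genes and counted 2 at an unadjusted p under 0.05, H2afy and Hist1h2ad, of the 73 with a count, against 1341 of 30967 among all genes, and limma-voom counted 0 by either measure. DESeq2 gave no adjusted p for Hist3h2bb-ps, Hist1h2ao, Hist2h2aa1, Hist1h2bq, Hist1h2br, Hist2h3c2 and Hist1h4m, which had very few counts and could not be called. The adjusted p of edgeR was 1.00 for each of the 59 histone genes tested.

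The amount of replication-dependent histone RNA per library was close in both groups. The sum over the 67 genes was 922, 775 and 911 CPM in the controls and 821, 819.6 and 908 CPM after delipidation, or 869 ± 81.7 against 849 ± 50.3 CPM (mean ± SD, n = 3), with a log2 ratio of −0.03. The control libraries included both the highest and the lowest sum, and the delipidated libraries fell between them. For the 7 variants the sums were 1344, 1156 and 1634 CPM in the controls and 1204, 1322 and 1407 CPM in the delipidated libraries, with a log2 ratio of −0.07. Again the delipidated values lay inside the control range. In bulk pools, fewer cells with a transcript and less of it per cell cannot be told apart. Per library, the share of all counts that fell on the 77 genes ran from 0.199% to 0.259%.

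Linker histones of the replication-dependent kind summed to 356, 262 and 302 CPM in the controls and 338, 298 and 325 CPM in the delipidated embryos (log2 ratio 0.06), so the groups overlapped. Between 93.0% and 95.0% of this class came from Hist1h1a alone. For H2A, the partner of H2B in the outer dimers of the nucleosome, the sums were 125, 109.8 and 138 CPM in the controls and 119, 109 and 130.4 CPM after delipidation (log2 ratio −0.05). H2B gave 203, 182 and 227 against 182, 206 and 209 CPM (log2 ratio −0.04). Both classes differed by less than the spread within either group. A gene on the opposite strand overlaps 17 of the 18 H2A genes. The strand setting of the counting is not stated, so the H2A values may hold reads of these partners.

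H3 and H4, which form the inner tetramer, had lower means after delipidation, with libraries of the groups overlapping. H3 genes summed to 103, 98.1 and 87.1 CPM in the controls and 66.9, 92.2 and 104 CPM in the delipidated libraries (log2 ratio −0.13, and 0.04 without delipidated 1). Delipidated 1 was the lowest of the 6 libraries and delipidated 3 the highest. H4 genes summed to 135, 124 and 156 CPM against 114, 115 and 139 CPM (log2 ratio −0.18), and delipidated 3 lay inside the control range. One gene supplied much of each class, Hist1h3f with a mean of 61.7% of H3 in the controls and 67.9% in the delipidated group, and Hist4h4 with 43.4% and 43.7% of H4. Without Hist1h3f, a subset formed after its values were seen, the H3 sums were 34.3, 39.9 and 36.0 CPM in the controls and 25.7, 29.2 and 29.5 CPM after delipidation (log2 ratio −0.38). These H3 sums did not overlap between the groups. For H1, H2A, H2B and H4, the sums without the gene of highest CPM did overlap (log2 ratios −0.07, −0.21, −0.09 and −0.18). No test was made of any of these sums.

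**Figure D1:**
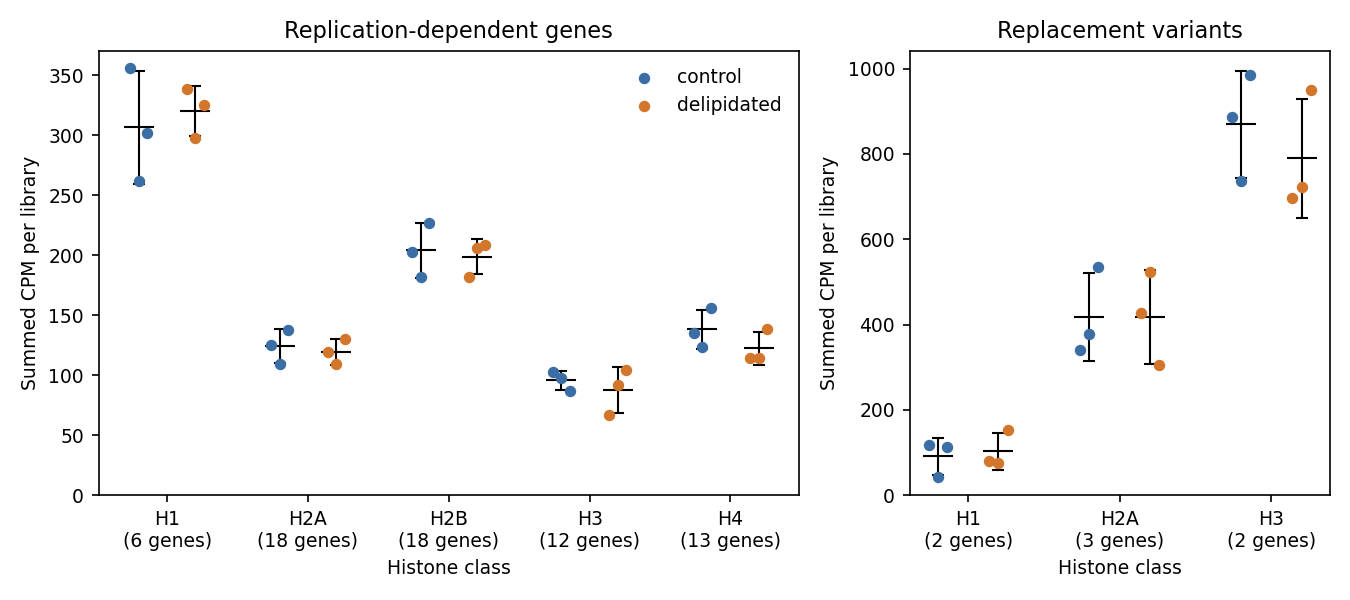
Summed CPM of each histone class in each library, for replication-dependent genes on the left and replacement variants on the right (with separate vertical scales). Points are libraries of 3 embryos, black bars are the mean and SD of 3 libraries, and the control and delipidated points of every class overlap.

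Single replication-dependent genes spread widely around these sums. Of the 51 tested, 34 had a log2 fold change below 0 (66.7%), beside 50.0% of all genes tested, with a median of −0.26 (quartiles −0.57 and 0.09) and a range from −1.52 to 0.67. The median of all genes tested was −0.00. By class the medians were −0.10 for H1, −0.27 for H2A, −0.25 for H2B, −0.50 for H3 and −0.19 for H4. The SEs ran from 0.19 for Hist1h1a to 1.93 for Hist1h2bg among the 59 histone genes tested, with a median of 0.59, so most single fold changes were smaller than or close to their own error. No test was run on these medians, which describe the genes that passed the filter.

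Replication-dependent genes with few counts lay below 0 more often than those with more counts, but not when control 3 was left out. Of 35 replication-dependent genes with a mean under 10 CPM, 26 were below 0 (74.3%, median −0.37), and 53.0% of the 7893 genes at that level were below 0 (median −0.06). Of the 16 genes at 10 CPM or more, 8 were below 0, with a median of −0.05. Summed over the 35 genes, the levels were 148, 159.9 and 216 CPM in the controls and 128, 146 and 149 CPM in the delipidated libraries. Control 3 stood above the other 5 libraries, which ranged over 128 to 159.9 CPM with the groups overlapping.

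Control 3 was the highest library for 15 of these 35 genes (42.9%), against 19.8% of all genes at that level. It was also the highest for 6 of the 16 genes at 10 CPM or more (37.5%), against 12.8% of all such genes. Without control 3, 31 of 53 replication-dependent genes tested were below 0 (58.5%, median −0.11), beside 50.6% of all genes tested (median −0.007). For the 35 low genes the count was 21 (60.0%, median −0.19), beside 50.6% of all genes at that level (median −0.015). Of the 16 others, 10 were below 0 (62.5%, median −0.10). Leaving out any other single library gave medians between −0.30 and −0.18 for the replication-dependent genes. For the 35 low genes these ran from −0.57 without control 1 to −0.31 without control 2. Medians of the 16 others ran from −0.18 without delipidated 3 to 0.09 without control 1, so their sign depended on the library left out. The number of genes with a count also differed, at 22855, 22437 and 20582 in the controls and 17091, 19408 and 20158 in the delipidated libraries, of which delipidated 1 had the most counts. The groups did not overlap, and the bearing of this on the low genes was not tested.

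Control 3 also had the highest summed level of a list of 20 cumulus and granulosa cell markers, the somatic cells that surround the oocyte. All 20 were found, 9 were tested and 0 were called by edgeR, with 2 lower at an unadjusted p under 0.05 and 0 higher (1.74% and 1.15% of all genes tested), and a median log2 fold change of −0.27. Their summed levels were 93.7, 71.5 and 227 CPM in the controls and 45.6, 53.9 and 91.3 CPM after delipidation. The gene with the highest mean over the 6 libraries was Serpine2, a secreted protease inhibitor, at 38.2, 15.1 and 41.0 CPM in the controls and 24.4, 12.5 and 46.7 CPM in the delipidated libraries. Vim, an intermediate filament gene, had 152, 145 and 300 counts in the controls and 0 in each delipidated library (edgeR adjusted p 0.0721), and Sparc, a matrix glycoprotein, had 91, 31 and 335 counts against 0, 8 and 32 (p 0.0176, adjusted p 1.00). With no filter on low counts, edgeR called both lower (adjusted p 5.70e-12 for Vim and 0.0436 for Sparc), and DESeq2 called Vim (adjusted p 1.00e-10) but not Sparc (adjusted p 0.152). In control 3 alone the steroid synthesis genes Cyp11a1 and Hsd3b1, named after their values were seen, were higher than Serpine2, at 49.6 and 46.1 of the 227 CPM. Cyp11a1 had 4, 0 and 653 counts against 0 in each delipidated library, and Hsd3b1 had 5, 0 and 607 against 0, 0 and 4. Vim, Sparc, Star, Vcan and Inhba were also highest in control 3, a pattern noted after their values were seen. Star had 0, 80 and 82 counts against 0, 10 and 43, and Vcan 0, 1 and 26 against 7, 1 and 0. The other members of the list were not highest there. Of the 9 tested, 6 had a log2 fold change below 0 and 3 above. Those 3 were Cyp19a1 (0.03), with 38, 16 and 30 counts against 0, 19 and 77, Tnfaip6 (0.15) and Col4a1 (0.22). Col4a1 was lowest in control 3, at 5.62 CPM. Foxl2, which marks granulosa cells, and Ptx3, which marks the expanded cumulus, were at 0 in every library. The authors had stripped the cumulus from the zygotes with hyaluronidase and washed them. The part of such cells in the histone values was not tested.

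**Figure D2:**
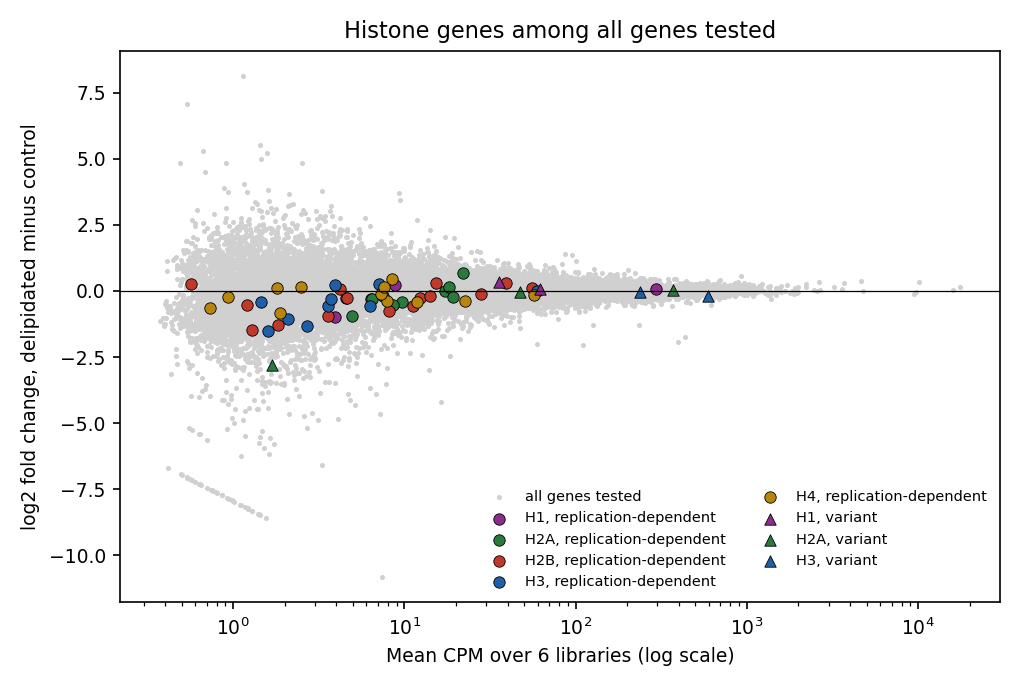
Log2 fold change (delipidated minus control) against mean CPM over the 6 libraries on a log axis, for the 16020 genes tested (grey), and for 51 replication-dependent genes (circles) and 7 variants (triangles) coloured by class. The histone genes lie within the grey cloud at every level, and the fold changes of replication-dependent genes run from −1.52 to 0.67.

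Hist1h1a, a somatic linker histone, and Hist2h2bb stood far above the other replication-dependent genes per length. Among the 61 replication-dependent genes with a single exonic part Hist1h1a ranked 1st at a mean of 459 CPM per kb, ahead of Hist2h2bb at 357, Hist1h2bk at 82.4 and Hist1h3f at 70.1 CPM per kb. Only unique reads were counted. All 150-base windows of Hist1h1a and Hist2h2bb occur at no other place, against 39.1% for Hist1h2bk and 75.6% for Hist1h3f. The bearing of this on the ranks was not tested. The rank of Hist2h2bb rests on a part of 155 bases under a joined identifier of overlapping genes, which a gene on the opposite strand covers. Hist1h1a measured 338, 244 and 281 CPM in the controls and 319.6, 278 and 309 CPM in the delipidated libraries. Its fold change was 0.07 (SE 0.19, p 0.714), the most precise of the histone genes tested, and the delipidated libraries all fell between control 2 and control 1. Hist1h1b, the next linker gene at 11.9 CPM per kb, measured 5.57, 8.28 and 10.5 CPM against 11.9, 13.8 and 2.97 CPM (log2 fold change 0.24, SE 0.64). Delipidated 3 was the lowest library of all 6 and delipidated 2 the highest.

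Another linker gene, Hist1h1d, was among the 6 histone genes with the smallest p. Its levels were 7.59, 3.45 and 4.64 CPM in the controls and 2.02, 1.78 and 4.17 CPM after delipidation (log2 fold change −0.97, SE 0.79, p 0.240). Delipidated 3 lay between controls 2 and 3. Hist1h1t, the testis linker histone, was too low to be tested, with 3, 4 and 0 counts in the controls and 21, 5 and 6 counts in the delipidated libraries. It is given here after its values were seen, as the groups do not overlap. Hist1h2ad, also not tested and described below, did not overlap in the other direction. No share without overlap was taken over genes too low to be tested.

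Hist2h2ac had the smallest p of the histone genes tested. It encodes a replication-dependent H2A and lies in the small cluster on chromosome 3 (96220361 to 96220880 of mm10, minus strand). Its levels were 18.5, 15.1 and 17.5 CPM in the controls and 30.3, 21.0 and 30.2 CPM in the delipidated libraries (17.0 ± 1.73 against 27.2 ± 5.33 CPM, mean ± SD, n = 3). Each delipidated library was higher than each control. The log2 fold change was 0.67 (SE 0.37, p 0.0947, adjusted p 1.00 by edgeR), and its p ranked 934 among the 16020 genes. It was the only one of the 59 tested histone genes with all delipidated libraries higher, against 3.81% of all genes tested. Its share of the summed H2A was 14.8%, 13.8% and 12.7% in the controls and 25.3%, 19.3% and 23.2% after delipidation. An annotated gene on the opposite strand, Gm44492, covers the same bases and received 1993 counts where Hist2h2ac received 2082, so reads of the 2 cannot be told apart.

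Hist1h2ai, an H2A gene of the large cluster, went the other way. It measured 4.81, 5.81 and 8.82 CPM in the controls and 2.32, 4.42 and 3.39 CPM after delipidation (log2 fold change −0.94, SE 0.68, p 0.196). All delipidated libraries were lower than all controls, as they were for Hist1h2bl and Hist1h3d, which makes 3 of 59 against 5.05% of all genes tested. Only 13.9% of the 150-base windows of Hist1h2ai occur at no other place in the transcript set, so few reads can be placed on it alone.

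The H2A genes highest per length were Hist1h2an at 49.0 and Hist1h2aa at 44.3 CPM per kb. Hist1h2an gave 23.5, 20.7 and 18.2 CPM against 24.6, 15.6 and 12.7 CPM (log2 fold change −0.24, SE 0.41). Hist1h2aa encodes TH2A, an H2A of testis and oocyte, and gave 26.0, 11.8 and 13.9 CPM against 12.2, 17.9 and 21.7 CPM (log2 fold change 0.01, SE 0.46). The groups overlapped for both. Its neighbour on chromosome 13, Hist1h2ba, encodes the matching TH2B and was added after its values were seen. Hist1h2ba measured 15.9, 10.7 and 14.7 CPM in the controls and 15.4, 15.6 and 19.7 CPM in the delipidated embryos (log2 fold change 0.30, SE 0.42).

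Among H2B genes, Hist2h2bb and Hist1h2bk were the highest per length. Hist2h2bb measured 51.0, 47.9 and 60.5 CPM in the controls and 61.7, 58.4 and 52.9 CPM after delipidation (log2 fold change 0.12, SE 0.27). Its counted part is only 155 bases long, and Gm20628 on the other strand, which also covers Hist2h3b, received 6650 counts over all libraries. Hist1h2bk measured 39.6, 33.9 and 31.9 CPM against 37.2, 44.4 and 48.4 CPM (log2 fold change 0.30, SE 0.30), and only control 1 reached into the delipidated range.

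Hist1h2bl, an H2B gene of low level, had 1.43, 2.30 and 4.10 CPM in the controls and 0.988, 0.983 and 1.20 CPM in the delipidated libraries (log2 fold change −1.30, SE 1.09, p 0.257). Control 3 was the highest and the delipidated libraries lay close together. Hist1h2be had 4.81, 2.72 and 6.61 CPM against 3.31, 1.78 and 2.19 CPM (log2 fold change −0.95, SE 0.80, p 0.260), and delipidated 1 was above control 2.

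Hist1h3f carried most of the replication-dependent H3 counts. It measured 68.2, 58.2 and 51.1 CPM in the controls and 41.2, 63.0 and 74.8 CPM in the delipidated libraries (log2 fold change 0.01, SE 0.30). The delipidated group held both the lowest and the highest library. Hist1h3g, next among H3 genes at 14.8 CPM per kb, had 3.71, 12.2 and 6.77 CPM against 5.38, 4.98 and 4.80 CPM (log2 fold change −0.58, SE 0.64), with the delipidated libraries inside the control range. Hist1h3d, added after its values were seen because its groups did not overlap, had 2.19, 2.96 and 3.34 CPM in the controls and 1.43, 1.47 and 1.13 CPM after delipidation (log2 fold change −1.07, SE 1.00).

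H4 is encoded by many genes of closely similar coding sequence. Hist1h4c, the highest of them at 57.5 CPM per kb, measured 23.6, 22.0 and 31.2 CPM in the controls and 8.30, 24.5 and 26.5 CPM in the delipidated libraries (log2 fold change −0.37, SE 0.47). Delipidated 1 alone lay under the controls. Hist1h4a, at 21.9 CPM per kb, had 9.28, 13.3 and 18.0 CPM against 15.3, 7.86 and 7.13 CPM (log2 fold change −0.42, SE 0.51), and delipidated 1 was here the highest of its group. Hist4h4, the long gene on chromosome 6 and the top of the H4 sum, was added after its values were seen and reached 19.8 CPM per kb. It had 63.4, 52.3 and 64.4 CPM in the controls and 55.0, 47.3 and 58.2 CPM after delipidation (log2 fold change −0.17, SE 0.27).

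Most replication-dependent genes lie together. On chromosome 13, 54 of the 67 fall between 21715763 and 23934851 (mm10), and the 44 tested there had a median log2 fold change of −0.31. The cluster summed to 772, 642 and 748 CPM in the controls and 660.1, 677 and 742 CPM after delipidation. On chromosome 3, 10 genes lie between 96219865 and 96270132, 5 of them tested with a median of 0.14. That cluster summed to 83.2, 76.3 and 92.9 CPM against 105, 88.6 and 103 CPM. The groups overlapped in both clusters. Chromosome 11 holds 2 more and chromosome 6 holds Hist4h4.

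**Figure D3:**
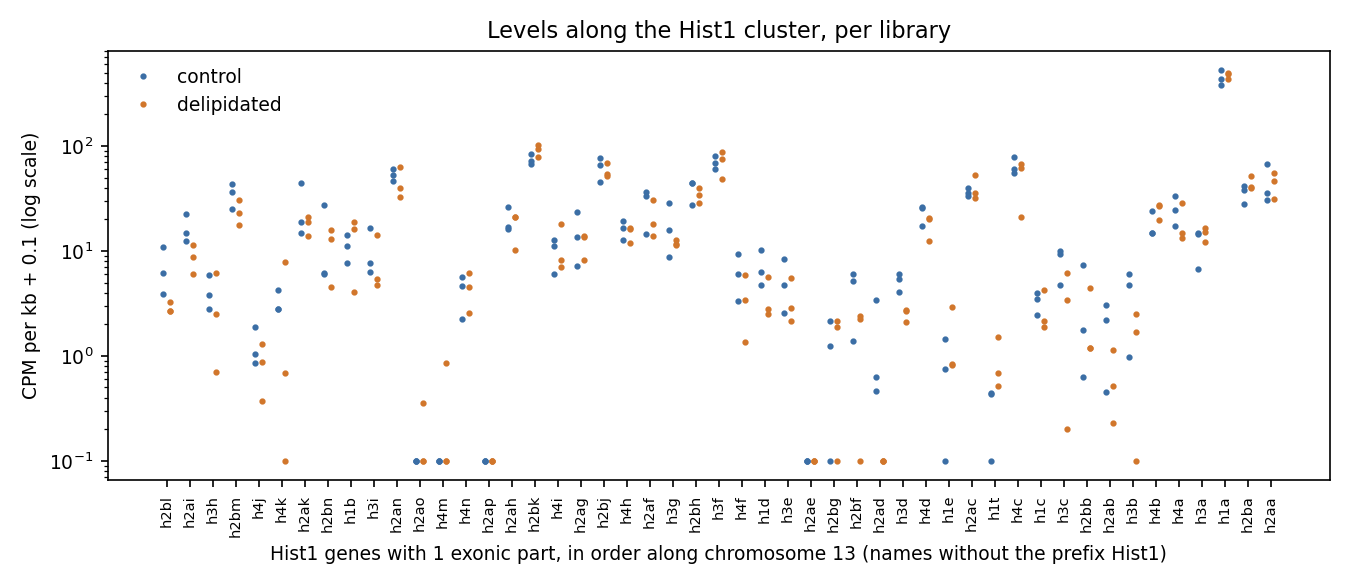
CPM per kb of 49 Hist1 genes with 1 exonic part, in order along chromosome 13, with 0.1 added and a log axis, and 1 point for each control (blue) or delipidated (orange) library. Points at the bottom of the axis are libraries with 0 counts, and Hist1h1a near the right end is the highest at a mean of 459 CPM per kb.

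Both H3.3 genes overlapped between the groups. H3.3 is laid down outside replication and replaces H3 in transcribed chromatin. H3f3b measured 625, 475 and 785 CPM in the controls and 436, 478 and 755 CPM after delipidation (log2 fold change −0.18, SE 0.25). H3f3a measured 261, 261 and 199.8 CPM against 261, 245 and 195 CPM (log2 fold change −0.04, SE 0.21). Of the H3f3a counts, 47.4% lay on parts that a gene of the opposite strand overlaps (Gm17275, with 4496 counts). In both genes replicate 3 of each group stood apart from the other libraries, higher for H3f3b and lower for H3f3a.

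H2afz and H2afx overlapped between the groups as well. H2afz encodes H2A.Z, found around transcription start sites, and measured 288, 336 and 476 CPM in the controls and 388, 473 and 255 CPM in the delipidated libraries (log2 fold change 0.02, SE 0.26). H2afx encodes H2A.X, phosphorylated at DNA breaks, and measured 50.2, 40.6 and 52.7 CPM against 38.7, 50.7 and 49.0 CPM (log2 fold change −0.05, SE 0.29). The delipidated libraries spanned most of the control range in each. H2afx shares its bases with Gm44335 on the opposite strand, which received 2579 counts.

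H2afy encodes macroH2A1, a variant of inactive chromatin, and was close to the limit of counting. It had 15, 11 and 91 counts in the controls and 19, 0 and 4 counts after delipidation. Most of its counts came from control 3, and delipidated 1 was above controls 1 and 2 in counts but below control 1 in CPM (0.938 against 1.27). Its log2 fold change was −2.82 (SE 1.59, p 0.103), the lowest of the histone genes tested. The unadjusted p was 0.0470 by DESeq2 (adjusted p 0.720) and 0.0394 by edgeR without delipidated 1 (log2 fold change −4.33, adjusted p 1.00). Without control 3 the log2 fold change was −1.22 (p 0.583), and without delipidated 2 it was −2.25 (p 0.173). Hist1h2ad, named because DESeq2 counted it at an unadjusted p of 0.0398 (adjusted p 0.679), had 2, 4 and 20 counts in the controls and 0 in each delipidated library. It did not pass the edgeR filter, and no fold is given.

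H1foo, the linker histone of the oocyte, had a wide spread within each group. It measured 80.7, 23.5 and 75.2 CPM in the controls and 32.3, 49.8 and 108 CPM in the delipidated libraries (log2 fold change 0.08, SE 0.50). Control 2 was the lowest library and delipidated 3 the highest. A list of 20 maternal oocyte transcripts gave 5235, 3155 and 4832 CPM in the controls and 3769, 3957 and 5764 CPM after delipidation, with the 6 libraries in the same order as for H1foo. The highest mean of that list was that of Btg4, which recruits a deadenylase to maternal messages, at 1971, 901 and 1749 CPM against 1084, 1256 and 1969.9 CPM. Among its 19 tested genes edgeR called 0, with 0 at an unadjusted p under 0.05 and a median log2 fold change of 0.08. Its smallest p values were those of Npm2, given below, and Zp2, a zona pellucida glycoprotein (log2 fold change −0.41, SE 0.34, p 0.252). The part of maternal RNA in the H1foo values was not tested. H1f0, a linker histone of cells that divide slowly, measured 37.1, 18.8 and 38.8 CPM against 47.9, 26.3 and 44.8 CPM (log2 fold change 0.33, SE 0.39), and control 2 was again the lowest.

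Of the genes switched on at the 2-cell stage, 13 of the 14 markers found had a count in delipidated 1 and all 14 in each other library. Of 16 markers of genome activation 14 were found and tested, 0 were called by edgeR and 0 had an unadjusted p under 0.05, with a median log2 fold change of 0.05. They summed to 857, 391 and 707 CPM in the controls and 581, 691 and 946 CPM in the delipidated embryos, led by Sp110. The smallest p values were those of Tdpoz4, which encodes TD and POZ domains (log2 fold change 0.74, SE 0.58, p 0.227), and Sp110, a nuclear body gene (log2 fold change 0.34, SE 0.27, p 0.232). The order of the sums was again that of the libraries for H1foo, with control 2 lowest and delipidated 3 highest.

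The transcripts that process histone messages were measured next to the histone genes. Slbp, whose product binds the stem-loop, measured 623, 435 and 406 CPM in the controls and 451, 375 and 592 CPM after delipidation (log2 fold change −0.05, SE 0.23). Lsm10 and Lsm11 encode Sm-like proteins of the U7 particle and were low. Lsm10 had 7.17, 8.77 and 3.80 CPM against 16.3, 14.99 and 5.15 CPM (log2 fold change 0.89, SE 0.60, p 0.170), and delipidated 3 lay inside the control range. For Lsm11 the values were 4.72, 6.77 and 4.48 CPM against 8.25, 5.04 and 4.31 CPM (log2 fold change 0.14, SE 0.64). Across the processing list 27 of 33 symbols were found and tested, edgeR called 0, and 0 were higher and 2 lower at an unadjusted p under 0.05 (1.15% and 1.74% of all genes tested), with a median of −0.04. Those 2 were Ncbp2, a subunit of the cap-binding complex (log2 fold change −0.56, p 0.0419), and Cpsf1, of the cleavage and polyadenylation factor (log2 fold change −1.10, p 0.0460).

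Npat is the coactivator of histone gene transcription in S phase and a substrate of cyclin E and Cdk2. Npat measured 127, 150 and 164 CPM in the controls and 113, 122 and 106 CPM in the delipidated libraries. Every delipidated library was lower than every control, although the nearest, control 1 and delipidated 2, were close. The log2 fold change was −0.37 (SE 0.22, p 0.116). Casp8ap2, or FLASH, works with NPAT and in 3′ end processing, and measured 546, 544 and 531 CPM against 495, 514 and 587 CPM (log2 fold change −0.02, SE 0.16).

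Hinfp, which activates H4 genes, had the smallest p of the transcription regulators. Its levels were 96.4, 113 and 97.9 CPM in the controls and 182, 175 and 117 CPM after delipidation, so each delipidated library was higher, delipidated 3 by little. The log2 fold change was 0.63 (SE 0.24, p 0.0235, edgeR adjusted p 1.00). Over the alternatives it ran from 0.26 for the exonic part with most counts (p 0.431) to 0.80 without delipidated 3 (p 0.00462). Nfyc, a subunit of the CCAAT-binding factor NF-Y, followed with a log2 fold change of 0.37 (p 0.0712). Of 22 symbols of the list 20 were found and 18 tested, 0 were called, and 1 was higher and 0 lower at an unadjusted p under 0.05 (against the same 1.15% and 1.74%), with a median of −0.03.

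Among histone chaperones, which carry histones to and from DNA, Chaf1b stood out. It encodes a subunit of CAF-1, which deposits H3 and H4 behind the replication fork. Chaf1b measured 40.3, 25.8 and 37.8 CPM in the controls and 11.8, 10.5 and 14.3 CPM in the delipidated libraries (34.6 ± 7.74 against 12.2 ± 1.91 CPM, mean ± SD, n = 3). The groups did not overlap. The log2 fold change was −1.51 (SE 0.38), with an unadjusted p of 0.00199 and an adjusted p of 1.00 by edgeR, so it did not pass, whereas DESeq2 called it at an adjusted p of 0.0262, and the adjusted p ran from 0.0262 to 1.00 over the alternatives. The log2 fold change ran from −1.68 without control 2 to −0.86 for the exonic part with most counts (p 0.281). Npm2, the egg nucleoplasmin, had a log2 fold change of 0.40 (p 0.112). All 39 chaperone genes found, of 41 symbols, were tested, edgeR called 0, and 0 were higher and 1 lower at an unadjusted p under 0.05 (against the same 1.15% and 1.74%), with a median of 0.03.

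The remaining lists held no called gene either. Of 35 S phase and replication genes, all tested, edgeR called 0 and 0 had an unadjusted p under 0.05, with a median log2 fold change of −0.10. The smallest p values there were 0.0557 for Mcm10, a replication initiation factor (log2 fold change 0.47), and 0.0865 for Rpa2, of the single-strand binding complex (log2 fold change −0.52). Of 16 symbols of other histone variants 13 were found, 7 were at 0 in every library, and 4 were tested, with 0 called, 0 at an unadjusted p under 0.05 and a median of 0.18. Cenpa, the H3 variant of centromeres, was the most abundant at 155, 206 and 200.3 CPM in the controls and 207, 236 and 168 CPM after delipidation (log2 fold change 0.12, SE 0.22). H2afj, a vertebrate H2A variant, had 13.2, 10.5 and 11.6 CPM against 29.4, 19.4 and 5.08 CPM (log2 fold change 0.62, SE 0.58). Its delipidated libraries lay on both sides of the controls.

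The stem-loop itself was read from the transcript models of GRCm38. The pattern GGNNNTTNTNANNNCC with a paired stem, searched on the sense strand, was found in 46 of the 67 replication-dependent genes (68.7%), and in 69 of 21901 protein-coding genes in all (0.315%). It was in 46 of the 54 models with an annotated 3′ UTR (85.2%) and in 0 of the 13 without one. The stem began 21 to 58 bases after the stop codon, with a median of 31. Hist1h1a, the replication-dependent gene with the highest CPM, had no match in its model. H2afx was the 1 variant of 7 with a match. The sites below are shown because they belong to genes described above, and Hist1h2bk and Hist1h3f have the same stem and loop. Stem and loop are in capitals, with 5 bases on each side, 5′ to 3′.
Hist1h1d: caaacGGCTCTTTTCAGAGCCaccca
Hist2h2ac: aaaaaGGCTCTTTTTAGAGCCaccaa
Hist1h2bk: ccaaaGGCTCTTTTAAGAGCCactaa
Hist1h3f: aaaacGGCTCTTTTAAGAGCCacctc
Hist1h4c: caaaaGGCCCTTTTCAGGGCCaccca
H2afx: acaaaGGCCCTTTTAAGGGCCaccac

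The 46 loops took 8 forms, and no form was shared between H4 and the other classes. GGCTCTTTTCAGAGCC was the commonest with 26 genes, 3 of H1, 10 of H2A, 8 of H2B and 5 of H3. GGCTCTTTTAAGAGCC, with the same stem, was in 6 genes of H1, H2B and H3. H4 genes carried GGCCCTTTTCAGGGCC in 7 genes, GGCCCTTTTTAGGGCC in 2 and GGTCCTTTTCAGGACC in 2, and the form of Hist2h2ac was found in no other member. A match is a description of these letters only. The annotated model ended within 100 bases of the loop in 23 of the 46 genes and ran further in the other 23.

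Many of these genes have near-identical copies, and the authors counted only reads that mapped uniquely. Across the 67 replication-dependent genes, a median of 76.6% of the 150-base windows occurred at no other place, and 17 genes were entirely their own. In 20 genes less than 50% of windows were their own, and 10 of these were among the 18 H2A genes. Of the 16 replication-dependent genes not tested, 9 were in that group and 7 were not. Hist1h2ae, Hist1h2ap and Hist3h2a had 0 counts in every library, although all windows of Hist3h2a were its own, and Hist2h3c1 had no exonic part of its own. A gene on the opposite strand overlapped 17 of the 18 H2A genes, 20 replication-dependent genes in all, and 2 of the 7 variants.

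Of the 3 pseudogenes only Hist1h2al was tested, at a mean of 35.6 CPM per kb. It measured 15.8, 10.8 and 14.8 CPM in the controls and 15.4, 9.21 and 14.7 CPM after delipidation (log2 fold change −0.07, SE 0.45). Hist1h2aj and Hist3h2bb-ps had too few counts to be tested.

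These values rest on 3 pools a group from one mixture of embryos, and a p that missed the threshold does not show that levels were equal. For 5 of the 7 variants the sum runs over several exonic parts, so a read can count more than once, and the ratio of replication-dependent to variant counts, 0.557 to 0.686 across libraries, is not a ratio of molecules.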

How the data were processed

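Total RNA of 6 pools of 3 mouse 2-cell embryos was measured with a stranded kit after depletion of ribosomal RNA. The deposited values are raw counts per exonic part. According to the submitters' processing notes, the authors used bcl2fastq 2.20, Trimmomatic 0.36, STAR 2.5.2b on mm10 and featureCounts, keeping unique reads in exons. The strand setting is not given in the sources used here, so reads of genes that overlap on opposite strands cannot be told apart.

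Here the 425461 parts were summed per gene. Of 33309 parts under joined identifiers of overlapping genes, 27968 could be given to 1 gene by its exons. The rest, with 2.49% to 2.57% of each library's counts, were dropped. Hist1h2bh and Hist1h2bm were named by position. Names, transcripts and UTRs came from GENCODE for GRCm38. The stem-loop pattern is 6 paired bases around a loop of 4, and windows of 150 bases were compared with all transcripts at other places.

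Control and delipidated libraries were tested with the quasi-likelihood test of edgeR 4.0.16 (R 4.3.3) after TMM scaling, with no covariate, and the code was checked on simulated counts. filterByExpr (min.count 10, min.total.count 15) left 16020 genes, over which p-values were adjusted by Benjamini-Hochberg. A gene was called when its adjusted p was under 0.05 and its log2 fold change was above 1 or below −1. The biological coefficient of variation common to all genes came to 0.663. Alternatives were DESeq2 1.42.0, limma-voom (limma 3.58.1), other scalings, filters and gene counts, a replicate block, and each library left out. Class sums and list medians were not tested. Per-kb levels divide by the length of the parts.

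The members and lists were chosen with earlier results of these data known. Named genes were the 7 variants, the 2 replication-dependent genes of each class highest in CPM per kb, the 6 members with the smallest unadjusted p, Slbp, Npat, Casp8ap2, Lsm10 and Lsm11, and from each list the genes called or else the 2 with the smallest unadjusted p. The 8 lists were histone mRNA processing, histone transcription regulators, histone chaperones, other histone variants, S phase and replication, cumulus and granulosa cell markers, 2-cell genome activation markers and maternal oocyte markers.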

Additional observations from a re-analysis of the deposited data

How the results depend on the processing

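Histone genes called stayed at 0 in all 16 settings, which are the reported one and its alternatives, DESeq2, limma-voom and every left-out library included. For all genes, edgeR called 0 and DESeq2 without a filter called 49 (9 higher, 40 lower), edgeR without a filter called 30 (5 higher, 25 lower), and the other alternatives called 0. Of the genes named in the report, edgeR without a filter called Vim and Sparc, and DESeq2 called Vim and Chaf1b. Those 2 settings test more genes of very low count and move the median of all genes to −0.17 and −0.18, beside −0.23 and −0.24 for the replication-dependent genes. That median was below 0 under every alternative, from −0.34 (limma-voom) to −0.11 (without control 3). The median of the variants was −0.04 and ran from −0.16 without control 2 to 0.02 without control 3. Log2 ratios of class sums changed sign when 1 library was left out. H3 became 0.036 without delipidated 1, H2A 0.026 and H2B 0.046 without control 3, and H1 −0.037 without control 2. All replication-dependent genes gave 0.023 without control 1, and all variants 0.067 without control 3. Variant H1 became −0.17 without control 2 and −0.23 without delipidated 3, and variant H2A ran from −0.19 without delipidated 2 to 0.22 without control 3. H4 and variant H3 stayed below 0, H4 from −0.28 without delipidated 3 to −0.083 without control 3.

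The sources state no animal or batch shared by replicate numbers, and libraries of the same number had correlations of −0.08, 0.07 and 0.04 over genes. With the replicate number as a block, 0 histone genes and 0 of all genes were called, 406 genes had an unadjusted p under 0.05, and the replication-dependent median was −0.26.

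Some fold changes changed sign, and the cause was not tested. With the exonic part of most counts, H2afz was −0.15, Hist1h2aa −0.033, Hist1h3f −0.032 and Zp2 0.031 (−0.41 in the sum). Hist1h3f was −0.019 with the block and −0.047 with limma-voom. Leaving out single libraries gave ranges of −0.54 to 0.40 for H1foo, −0.16 to 0.062 for H2afx, −0.19 to 0.25 for H2afz, −0.16 to 0.069 for H3f3a, −0.46 to 0.015 for H3f3b, −0.033 to 0.22 for Hist1h1a, −0.12 to 0.66 for Hist1h1b, −0.20 to 0.44 for Hist1h2aa, −0.19 to 0.22 for Hist1h3f, −0.24 to 0.18 for Slbp, −0.10 to 0.028 for Casp8ap2 and −0.19 to 0.35 for Lsm11, which was 0.96 with the exonic part of most counts. Other fold changes kept their sign but moved, from 0.065 to 0.55 for H1f0, −0.56 to −0.054 for Hist1h2an, −0.90 to −0.051 for Hist1h3g, −0.64 to −0.0033 for Hist1h4c, −0.85 to −0.16 for Hist1h4a, −1.46 to −0.59 for Hist1h1d, −1.58 to −0.82 for Hist1h2bl, −1.24 to −0.63 for Hist1h2be, 0.050 to 0.22 for Hist2h2bb, −0.86 to −0.35 for Ncbp2, 0.19 to 0.55 for Npm2, 0.064 to 1.05 for H2afj, 0.00070 to 0.24 for Cenpa, −5.57 to −2.38 for Sparc, 0.35 to 1.65 for Tdpoz4 and 0.11 to 0.66 for Sp110. Hist2h2ac kept its direction in all, from 0.59 to 0.83, with an unadjusted p of 0.0421 for its exonic part of most counts.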
